A study of Mus musculus with 10 samples.

Results

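GIRK channels are potassium channels of the inward rectifier family that open when G protein βγ subunits bind them. The mouse genome has 4 genes for their subunits, Kcnj3 (GIRK1), Kcnj6 (GIRK2), Kcnj9 (GIRK3) and Kcnj5 (GIRK4), and their counts were followed through 10 RNA-seq libraries of the mouse cochlea. The 4 were found by gene name among the 54532 gene rows of the count files, and all 4 had at least 1 read in every library. Kcnj9 stood here because it had the smallest p of the comparison between treated and untreated mice, so its difference between the groups is described and not tested. The other 3 were taken as the rest of the subunit family and were tested.

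The libraries came from cochleae of 12-month-old wild-type mtKeima mice, which carry a mitochondria-targeted, pH-sensitive Keima reporter. The 5 NR samples were from mice that drank nicotinamide riboside, an NAD+ precursor, at 7 mg/ml (24 mM) from 2 months of age, over 10 months, and the 5 Veh samples were from mice of the same strain and age on regular water. The methods of the study describe RNA taken from the cochleae of 5 male mice in each group, so each library is called a mouse below, while the labels call all 10 female. All 10 libraries held 1235 to 1928 reads of the Y-linked Ddx3y and 2 to 8 reads of Xist.

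In textbook terms, a neurotransmitter binds a Gi/o-coupled receptor, the freed Gβγ opens the GIRK channel in the same membrane, and the outward potassium current quiets the cell. RGS proteins speed the end of the signal. The channels are tetramers: Kcnj3 with Kcnj5 forms the acetylcholine-gated channel of the heart's atria, and Kcnj3 with Kcnj6 is the commonest pairing in central neurons. The Kcnj9 subunit is mainly neuronal, joins other subunits and binds the trafficking protein SNX27 in endosomes.

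The 4 genes lie on 4 chromosomes of the mm10 build. Kcnj9 (ENSMUSG00000038026) spans chr1:172320501-172329318 on the minus strand, Kcnj3 (ENSMUSG00000026824) chr2:55435970-55598145 on the plus strand, Kcnj5 (ENSMUSG00000032034) chr9:32314707-32344350 on the minus strand, and Kcnj6 (ENSMUSG00000043301) chr16:94748636-94997701 on the minus strand. The most conserved stretch of the family is shown because it carries the trait that defines these genes, a potassium-selective pore, and because it shows how alike the sequences are that reads had to be told apart by. Each line is 60 coding bases, 5′ to 3′, from the mm10 genome through the GENCODE M21 transcripts, and the capitals mark the 5 codons of the selectivity filter.
Kcnj9, exonic, coding, chr1:172326166-172326225, minus strand: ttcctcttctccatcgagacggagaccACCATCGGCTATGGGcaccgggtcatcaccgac
Kcnj3, exonic, coding, chr2:55437600-55437659, plus strand: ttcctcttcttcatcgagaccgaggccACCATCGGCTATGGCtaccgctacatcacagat
Kcnj5, exonic, coding, chr9:32322541-32322600, minus strand: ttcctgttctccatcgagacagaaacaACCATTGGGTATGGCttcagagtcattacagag
Kcnj6, exonic, coding, chr16:94832759-94832818, minus strand: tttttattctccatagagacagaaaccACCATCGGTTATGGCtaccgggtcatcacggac

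In these windows, pairs of members shared 45 to 50 of 60 bases, and 12 to 14 of the 15 filter bases. Over the aligned coding sequences the identity of pairs ran from 68.11% (Kcnj3 and Kcnj5) to 72.89% (Kcnj5 and Kcnj6). The coding lengths were 1179 bases for Kcnj9, 1257 for Kcnj5, 1275 for Kcnj6 and 1503 for Kcnj3. Part of the exons is shared with other annotated genes: 31.08% of the exonic bases of Kcnj3 overlap the antisense gene Gm26794, 4.011% of those of Kcnj9 overlap Gm36937 on the opposite strand, 4.978% of those of Kcnj6 overlap Gm41505, and none of those of Kcnj5 overlap another gene. The library kit was not described as strand-specific and counting was by default settings, so reads from a gene and its antisense partner cannot be told apart within the shared bases. Outside them, Gm26794 had 0 to 4 reads per library and Gm36937 1 to 8.

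The 10 libraries held 17060379 to 24419230 counted reads each, and no pair of libraries agreed within sampling noise. Levels are given as CPM (counts-per-million, on the TMM-scaled library size) within a gene, and as RPKM (CPM per kilobase of the deposited gene length) between genes. Of 18329 genes kept for testing, 886 (4.83%) were higher and 894 (4.88%) lower in NR at an unadjusted p of 0.05, the call rule the study used, by edgeR's quasi-likelihood test. None passed an adjusted p of 0.05 with edgeR, where the smallest adjusted p was 0.2243, and 102 did with DESeq2. Leaving out 1 library moved the edgeR counts at the unadjusted threshold by over 1.5 times without NR mouse 2 (1414 higher). The same held without NR mouse 1, NR mouse 3 or Veh mouse 3 (521, 484 and 558 lower). Every NR mouse lay above every Veh mouse for 141 genes (0.769%) and below for 161 (0.878%). Scaled by plain library totals, these counts were 230 above and 93 below.

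A set of 4 libraries stood apart from the other 6. NR mice 1, 3 and 5 and Veh mouse 1 held 2409 to 3045 reads of Prph, the intermediate filament peripherin of peripheral neurons, against 46 to 614 in the rest. Prph is also 1 of the 11 spiral ganglion neuron markers used below. NR mouse 2 held 63 reads of Gad2, a marker of inhibitory central neurons, and 16 of Gabra6, of cerebellar granule cells, against at most 5 and 1 elsewhere. The differences of the 4 members and the counts over the pathway lists are given with and without the 4 Prph libraries, and those of single other genes where leaving them out changed a call. Leaving them out left 2 NR and 4 Veh mice, and 359 genes were then higher and 353 lower at the unadjusted threshold. A call lost there is thus no sign by itself that the difference became smaller.

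Kcnj9, the gene that brought the family here, was about 2 times as high in NR cochleae. In NR mice 1 to 5 it stood at 9.927, 11.95, 12.72, 12.58 and 10.88 CPM (206, 267, 294, 288 and 188 reads), a mean of 11.61 ± 1.188 (SD, n = 5). In Veh mice 1 to 5 it stood at 5.759, 5.432, 3.966, 5.82 and 6.872 CPM (116, 121, 98, 132 and 148 reads), a mean of 5.57 ± 1.047 (SD, n = 5). The lowest NR mouse was above the highest Veh mouse. The log2 fold change was 1.06 (SE 0.15), with the unadjusted p of 1.506e-05 that ranked it 1 of 18329 genes and an adjusted p of 0.2243 by edgeR's quasi-likelihood test. That p is the value the gene was chosen by. With DESeq2's Wald test the adjusted p of Kcnj9 was 5.379e-09, so it was among the 102 genes called there. Both tests rest on the counts that chose the gene, so neither is a test of it. The coefficient of variation was 10.23% in NR and 18.8% in Veh, against medians of 11.39% and 14.09% over all genes tested.

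**Figure D1:**
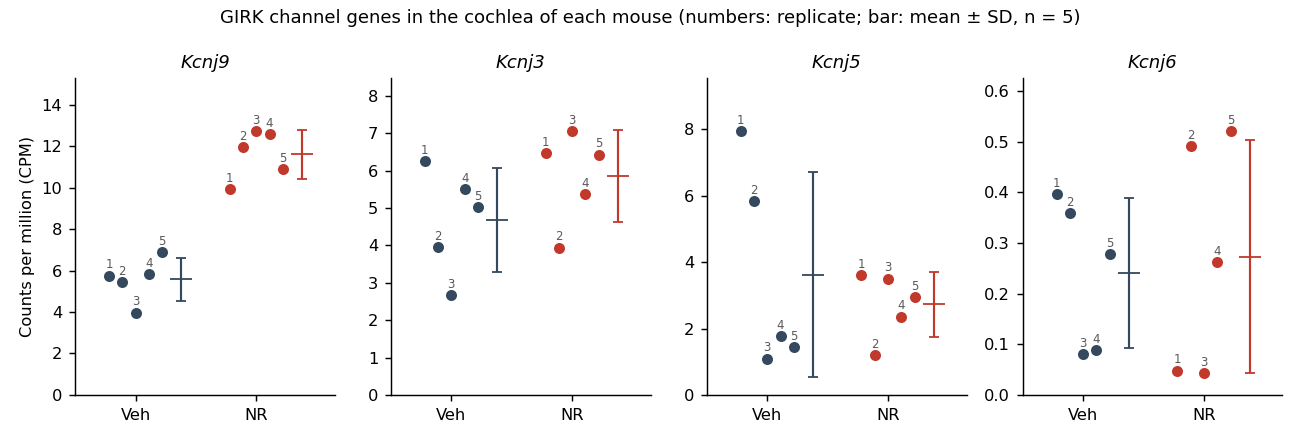
CPM of the 4 GIRK channel genes by group, 1 point per mouse with its replicate number, and the mean ± SD of 5 mice beside each group. Each panel has its own axis from 0. Kcnj9 runs from 9.927 to 12.72 in NR and from 3.966 to 6.872 in Veh, and the groups of the other 3 genes overlap.

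Kcnj9 did not follow the Prph libraries. Among NR mice the 3 Prph libraries stood at 9.927 to 12.72 CPM and the other 2 at 11.95 to 12.58, and among Veh mice the Prph library stood at 5.759 and the other 4 at 3.966 to 6.872. Its log2 fold change was 1.16 (SE 0.22) over the 6 libraries without the 4, and 1.08 (SE 0.16) with the split as a term. Leaving out each mouse in turn gave 0.97 to 1.15. With the mean level of 11 spiral ganglion neuron markers as a covariate it was 0.96 (SE 0.19).

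**Figure D2:**
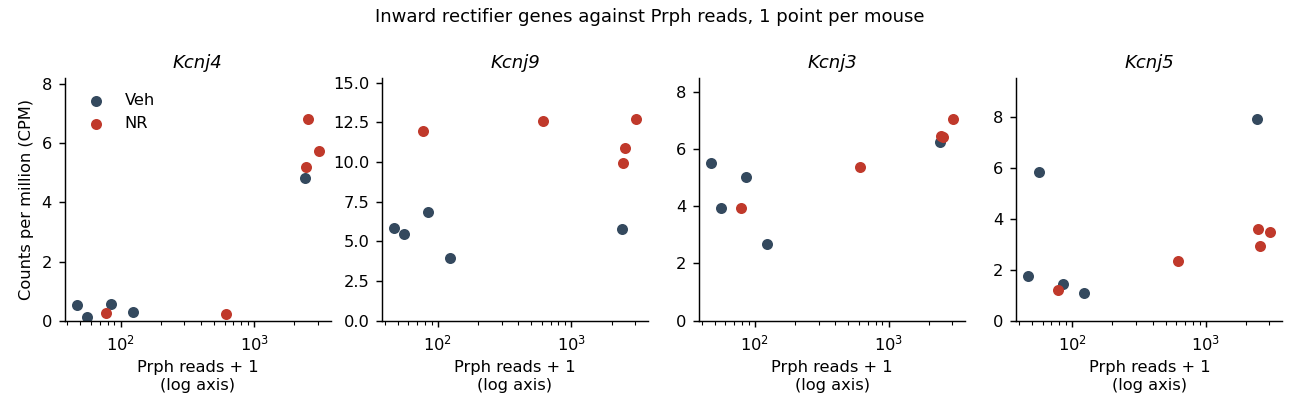
CPM of 4 inward rectifier genes against the reads of Prph plus 1 (log axis), 1 point per mouse, red for NR and dark for Veh. Kcnj4 is high in the 4 libraries with 2409 to 3045 Prph reads and near 0 in the others, while Kcnj9 separates by group at either end of the axis.

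Other cell types also differed between the groups, and these values stand beside the Kcnj9 difference because their part in it was not tested. Spiral ganglion neuron markers, those of the primary auditory neurons, summed to 6372 to 7318 CPM in NR and 5202 to 7922 in Veh, and 2 of 11 were higher in NR at the unadjusted threshold, Tubb3 and Pou4f1. The central neuron list had 0 of 3 tested genes called and sums of 72.52 to 106.5 against 74.96 to 109.4 CPM. The cerebellar list had 1 of 7, Neurod1, which ran from 0.3494 to 1.074 CPM in NR and from 0.08093 to 0.4964 in Veh. In the unfiltered fit the cerebellar genes Gabra6 and Pcp2 and the central neuron gene Gad2 were also higher in NR (unadjusted p 0.03541, 0.0407 and 0.04979 by edgeR). These were 2 of 2 cerebellar and 1 of 5 central neuron genes taken from that fit, where 4.26% of all genes were higher. Most reads of Gabra6, Pcp2 and Gad2 were in NR mouse 2, at 16, 44 and 63. Any other library held at most 1, 9 and 5, and Gabra6 was at 0 in 7 of the 10 libraries. Kcnj9 stood at 11.95 CPM in NR mouse 2 and at 9.927 to 12.72 in the other NR mice.

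Beyond the neurons, skeletal muscle genes were higher in NR (6 of 7, sums of 11.23 to 849.8 against 8.962 to 73.42 CPM), as were adipocyte genes (3 of 4, 50.92 to 181.4 against 15.48 to 56.21). The muscle gene Acta1 was high in only some NR mice. It was at 1.012, 6.845, 286.6, 29.61 and 124.4 CPM in NR mice 1 to 5, against 0.5108 to 12.16 in Veh mice. For these lists and the neuron lists, the shares over all genes tested were 4.83% higher and 4.88% lower. Pigment cell genes were lower in NR (3 of 4, 167.7 to 351.6 against 366.6 to 799.5), as were tectorial membrane and supporting cell genes (5 of 5, 270.4 to 487.2 against 350.8 to 975.8) and genes of strial marginal cells (2 of 4) and fibrocytes (1 of 2). Among 6 Schwann cell genes 1 was lower. None was called among 6 central glial, 7 hair cell, 3 cardiac muscle, 5 B cell, 5 neutrophil and 4 bone genes tested. In bulk tissue, fewer cells of a type and less RNA per cell cannot be told apart.

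Kcnj3 encodes GIRK1, the subunit that needs a partner to reach the surface. It stood at 6.457, 3.937, 7.053, 5.371 and 6.425 CPM in NR mice 1 to 5, a mean of 5.849 ± 1.228 (SD, n = 5). In Veh mice 1 to 5 it stood at 6.255, 3.951, 2.671, 5.511 and 5.015, a mean of 4.681 ± 1.401 (SD, n = 5). The groups overlapped over most of their range. The log2 fold change of 0.32 (SE 0.23, 95% interval -0.19 to 0.84) did not pass edgeR's test (unadjusted p 0.1954, adjusted p 0.6698). Leaving out each mouse in turn gave 0.19 to 0.46, none past the test.

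Kcnj3 followed the Prph split. Its 4 highest libraries were the 4 Prph libraries, at 6.255 to 7.053 CPM, and the other 6 lay at 2.671 to 5.511. Over those 6 its log2 fold change was 0.12 (SE 0.32), and with the split as a term 0.11 (SE 0.21). With the spiral ganglion neuron covariate it was -0.04 (SE 0.27), so its sign turned.

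Kcnj5 encodes GIRK4, the partner of Kcnj3 in the atrial channel. It stood at 3.614, 1.208, 3.505, 2.358 and 2.952 CPM in NR mice 1 to 5, a mean of 2.727 ± 0.9857 (SD, n = 5). In Veh mice 1 to 5 it stood at 7.943, 5.836, 1.093, 1.764 and 1.439, a mean of 3.615 ± 3.09 (SD, n = 5). Veh mice 1 and 2 were above every NR mouse, and the other 3 Veh mice were within or just below the NR range. The log2 fold change was -0.40 (SE 0.55, 95% interval -1.61 to 0.80), and did not pass edgeR's test (unadjusted p 0.4785, adjusted p 0.8181).

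That sign rested on 1 animal: without Veh mouse 1 the log2 fold change of Kcnj5 was 0.11 (SE 0.50). Over the 6 libraries without the 4 Prph libraries it was -0.50 (SE 0.73). With the spiral ganglion neuron covariate it was -1.47 (SE 0.47, edgeR unadjusted p 0.01015, adjusted p 0.2628). The spread of Kcnj5 in Veh, a coefficient of variation of 85.47%, was above that of 98.79% of all genes tested. Cardiac muscle markers summed to 15.04 to 42.72 CPM in Veh and 22.05 to 34.19 in NR, and 0 of 3 tested genes was called. Those 3 were Tnnt2, Tnni3 and Myh6, which made up most of the sums. The filter left out the atrial genes of the list, Myl7 and Nppa. Their means were 0.1112 and 0.116 CPM in Veh and 0.04729 and 0.1421 in NR.

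Kcnj6 encodes GIRK2, the partner of Kcnj3 in the commonest pairing of central neurons, and was near the limit of detection. It had 1, 11, 1, 6 and 9 reads in NR mice 1 to 5 and 8, 8, 2, 2 and 6 reads in Veh mice 1 to 5, or 0.04327 to 0.5209 CPM and 0.08093 to 0.3971 CPM. Summed over each group these were 28 reads in NR and 26 in Veh, a depth-adjusted ratio of 1.148 with an exact 95% interval of 0.6487 to 2.037 that covers counting error only. The filter on low counts left Kcnj6 out. When the 33224 genes that had any read were fitted without that filter, where 1414 (4.26%) were higher and 1066 (3.21%) lower at the unadjusted threshold, its log2 fold change was 0.19 (SE 0.67, 95% interval -1.26 to 1.64, edgeR unadjusted p 0.7823, adjusted p 0.942). A difference smaller than those bounds was not detectable at this depth, and the sign turned negative when NR mouse 2 (-0.17), NR mouse 5 (-0.14), Veh mouse 3 (-0.05) or Veh mouse 4 (-0.04) was left out. Over the 6 libraries without the 4 Prph libraries it was 0.91 (SE 0.71, edgeR unadjusted p 0.2312), against 0.19 (SE 0.67) over all 10, with wide errors on both.

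Compared per gene length, the order of the members over all 10 mice was Kcnj9, Kcnj3, Kcnj5 and Kcnj6. Mean levels were 2.003 ± 0.7822, 1.01 ± 0.2659, 0.6769 ± 0.4722 and 0.03368 ± 0.02409 RPKM (SD, n = 10). All 4 were low for this tissue: the median gene tested stood at 4.776 RPKM, and 30.8% of genes tested were below Kcnj9, 19.04% below Kcnj3 and 13.51% below Kcnj5.

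Within a mouse, Kcnj9 was above Kcnj3 in 10 of 10 mice, by a mean log2 ratio of 0.93 ± 0.50 (SD, n = 10), a description, since the values of Kcnj9 chose it. Kcnj3 was above Kcnj5 in 8 of 10 mice, by 0.81 ± 0.81 (SD, n = 10; exact two-sided sign-flip permutation test, p = 0.01953, adjusted over 3 pairs 0.01953). Kcnj5 was above Kcnj6 in 10 of 10 mice, by 4.32 ± 1.43 (same exact test, p = 0.001953, the smallest possible, adjusted 0.00293). The exceptions were Veh mice 1 and 2, where Kcnj5 was at 1.695 and 1.246 RPKM and Kcnj3 at 1.199 and 0.7576. In Veh mouse 1 Kcnj5 was also above Kcnj9, which stood at 1.343 RPKM. The order of the 4 did not change when coding length replaced gene length. Neither length allows for reads lost in bases shared with other genes, 31.08% of the exonic bases of Kcnj3 and 4.011% of those of Kcnj9. The level of Kcnj3 may therefore be too low beside Kcnj9, here and in the comparison by group below. The effect on the order was not tested, and in Veh mice Kcnj9 was as little as 1.12 times Kcnj3.

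By group, Kcnj9 was 1.87 to 3.69 times Kcnj3 in NR mice and 1.12 to 1.806 times in Veh mice. Kcnj9 made up 53.45% to 72.11% of the summed RPKM of the 4 genes in NR mice and 31.31% to 55.11% in Veh mice. Kcnj9 was chosen for its difference between the groups, so higher ratios and shares in NR follow from that choice and are a description. Kcnj6 made up at most 1.669% in any mouse.

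**Figure D3:**
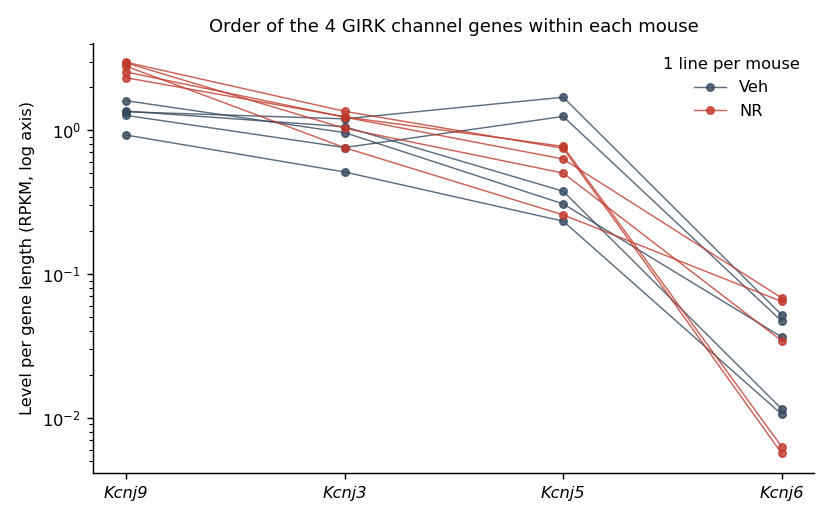
RPKM (log axis) of the 4 GIRK channel genes, 1 line per mouse, red for NR and dark for Veh. The lines fall from Kcnj9 to Kcnj6 in every mouse except that 2 Veh lines rise from Kcnj3 to Kcnj5, to 1.695 and 1.246 RPKM.

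No pair of members passed a test for varying together within groups. With group means removed, 6 pairs were compared over 10 mice on log2 CPM. The smallest p was that of Kcnj3 and Kcnj5, with Pearson's r 0.60 (exact permutation p = 0.1209, adjusted 0.5446) and Spearman's rho 0.62 (exact permutation p = 0.106, adjusted 0.6362). Without the 2 mice farthest from the median of Kcnj3 that r was 0.10. Kcnj3 and Kcnj9 had r 0.54 (exact permutation p = 0.1815, adjusted 0.5446), which was 0.04 without 2 mice. The other 4 pairs had r of -0.08 to 0.30. Pairs of members share each library, and no pair was shown to be unrelated.

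The genes most like each member by r within groups are named as a description. They were picked as the most alike over the same mice, so a matching order of mice follows from the choice. Among so many genes, a high r over 10 mice can also arise by chance. Closest to Kcnj9 of 18328 genes were Akap6, an anchoring protein of protein kinase A (r 0.98, n = 10), Tex2 (0.96), the cytidine deaminase Cda (0.96), the AMP-activated kinase subunit Prkaa1 (0.95) and the neurotrophin receptor Ntrk3 (0.95). Their own differences between the groups were smaller than that of Kcnj9: log2 fold changes were 0.34 for Akap6 (SE 0.11, unadjusted p of 0.0116 by edgeR) and between -0.09 and 0.09 for the other 4. In NR mice Akap6 ran from 106.4 to 130.2 CPM, with mouse 1 lowest and mouse 3 highest as for Kcnj9, and in Veh from 68.71 to 110.1, with mouse 3 lowest and mouse 5 highest as for Kcnj9.

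Closest to Kcnj3 were the voltage-gated potassium channel Kcna6 (r 0.97, n = 10), the inward rectifier Kcnj12 (0.96) and Chp2 (0.95). Kcna6 ranged from 5.787 CPM in Veh mouse 3, where Kcnj3 was also lowest, to 21.89 in NR mouse 3, where Kcnj3 was also highest. Closest to Kcnj5 were Rgs18, a regulator of G protein signalling known from platelets (r 0.99, n = 10), the leukotriene receptor Cysltr2 (0.99) and the glycosyltransferase Galnt5 (0.98). Veh mice 1 and 2, high for Kcnj5, were also the 2 highest for Rgs18, at 25.81 and 20.88 CPM against 4.492 to 13.67 in the other 8, and for Cysltr2, at 4.468 and 3.906 against 0.9307 to 3.084. For Kcnj6 the closest were Syncrip (r 0.96, n = 10), 1110003F10Rik (0.92) and 6330411D24Rik (0.92), and with 1 to 11 reads per library these carry counting noise.

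The genes around the GIRK channels in the signalling chain were then read from the same fit, as 4 lists. Of 87 listed genes, 73 were kept for testing. Of these, 8 were higher and 2 lower in NR at the unadjusted threshold, beside backgrounds of 4.83% and 4.88%, and none passed an adjusted p of 0.05. The counts over all genes, 886 higher and 894 lower in the main fit, moved with the fit too and are given beside those of the lists. Over the 6 libraries without the 4 Prph libraries the lists had 4 higher and 1 lower (all genes 359 and 353). With the spiral ganglion neuron covariate they had 2 and 2 (all genes 560 and 1255). Without Veh mouse 1 alone 19 were higher (all genes 1223) and without NR mouse 2 alone 15 (all genes 1414). Without Veh mouse 4 alone 4 were lower (all genes 763).

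**Figure D4:**
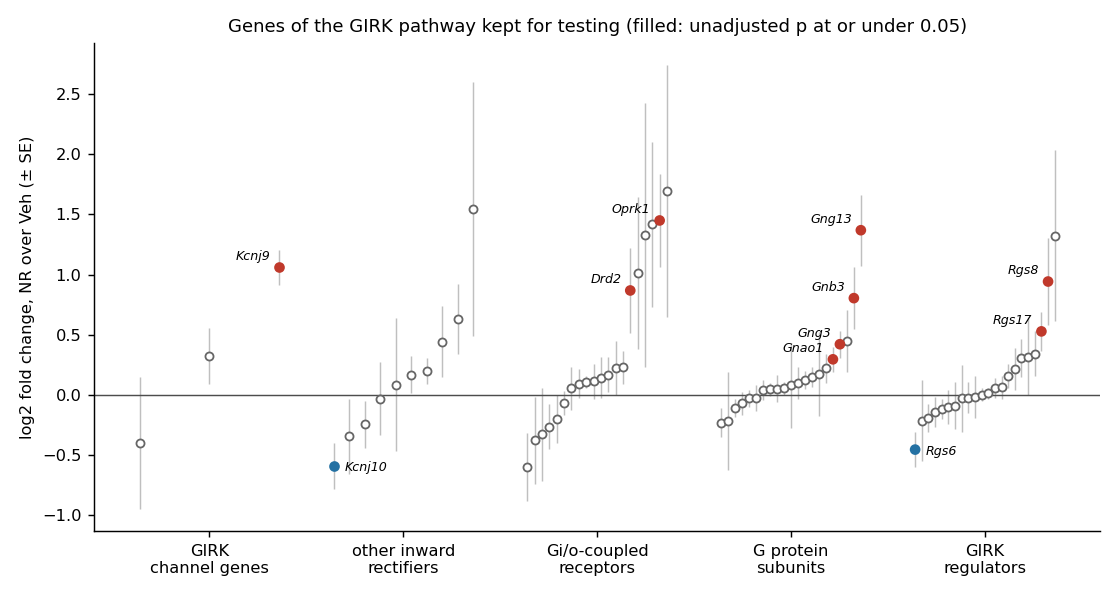
log2 fold change of NR over Veh ± SE for the genes kept for testing, by list, each list sorted by value. Filled points had an unadjusted p at or under 0.05, and Kcnj9, at 1.06, was chosen by that value. In the lists of G protein subunits and regulators 4 and 2 points are filled above 0, while Kcnj10 and Rgs6 are filled below.

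At the top of the chain stand the receptors. Among 33 Gi/o-coupled receptor genes 20 were kept for testing. Of these, 2 were higher and none was lower, beside backgrounds of 4.83% and 4.88%. The median log2 fold change was 0.13, against -0.01 over all genes tested. The highest per length were Gabbr1 and Gabbr2, the 2 subunits of the GABA-B receptor, and the adrenergic receptor Adra2a, at 27.1, 19.08 and 8.451 RPKM, and their log2 fold changes were 0.11 (SE 0.05), 0.23 (SE 0.13) and -0.07 (SE 0.10), none past the test. Gabbr1 passed the unadjusted threshold with DESeq2 (0.11) and without NR mouse 1 or Veh mouse 5 (both 0.14) and Gabbr2 without Veh mouse 5 (0.31).

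The receptors that rose were scarce. Oprk1, the kappa opioid receptor, was at 0.9638, 0.6711, 0.6058, 0.9607 and 1.215 CPM in NR mice 1 to 5 and 0.3971, 0.1347, 0.1619, 0.3086 and 0.6037 in Veh mice 1 to 5. Each NR mouse was above each Veh mouse, but NR mouse 3 and Veh mouse 5 nearly met. The log2 fold change was 1.45 (SE 0.38, edgeR unadjusted p 0.003089, adjusted p 0.4075), and the call was lost with the spiral ganglion neuron covariate (1.05, unadjusted p of 0.05386 by edgeR). The dopamine receptor Drd2 rose from 2.077 ± 1.11 to 3.79 ± 0.6915 CPM (SD, n = 5 each), a log2 fold change of 0.87 (SE 0.35, edgeR unadjusted p 0.03137, adjusted p 0.476) that lost the call without NR mouse 3, NR mouse 5 or Veh mouse 1, without the 4 Prph libraries, with that split as a term, and with the spiral ganglion neuron covariate (0.73). In the unfiltered fit the serotonin receptor Htr1a (4 to 11 reads in NR and 2 to 6 in Veh mice) and the neuropeptide Y receptor Npy2r (1, 8 and 3 reads in NR mice 1, 3 and 4 and 1 read in Veh mouse 4) were also at or under 0.05, at log2 fold changes of 1.30 (SE 0.40) and 2.97 (SE 1.22). Htr1a and Npy2r were 2 of 13 receptor genes taken from that fit, where 4.26% of all genes were higher and 3.21% lower. Npy2r lost the call without NR mouse 3 or without Veh mouse 1, 2, 3 or 5.

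The G protein subunits had the most calls of the 4 lists. All 21 were tested, 4 were higher and none was lower, beside backgrounds of 4.83% and 4.88%, and the median log2 fold change was 0.08. For 3 of the 21 every NR mouse lay above every Veh mouse, against 0.769% of all genes tested. Gng3, a neuronal γ subunit and one of the most abundant of the list at 84.19 RPKM, was at 163.8, 151.2, 176, 159.4 and 168.4 CPM in NR mice 1 to 5 and 114.8, 139, 94.45, 112.3 and 151 in Veh mice 1 to 5. The lowest NR and the highest Veh mouse differed by less than 1 CPM. The log2 fold change was 0.42 (SE 0.11, edgeR unadjusted p 0.003091, adjusted p 0.4075).

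Gng13, a γ subunit known from taste cells and retinal bipolar cells, was at 0.984 to 1.385 CPM in NR and 0.2023 to 0.6501 in Veh, with 17 to 32 and 5 to 14 reads. Its log2 fold change was 1.37 (SE 0.29, edgeR unadjusted p 0.000713, adjusted p 0.37). Its groups did not overlap. Gnb3, a β subunit of cone photoreceptors and bipolar cells, likewise did not overlap, at 1.432 to 2.169 CPM in NR and 0.4856 to 1.39 in Veh (log2 fold change 0.80, SE 0.26, edgeR unadjusted p 0.009706, adjusted p 0.4335). Gnao1, the neuronal Gαo, rose by less and overlapped, from 94.41 ± 12.84 to 115.9 ± 12.63 CPM (SD, n = 5 each).

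Without the 4 Prph libraries, with 2 NR and 4 Veh mice left, the calls of Gng3, Gnb3 and Gnao1 were lost. Their log2 fold changes were 0.33, 0.85 and 0.17 there, against 0.42, 0.80 and 0.30 over all 10 mice. The 3 calls were lost with the spiral ganglion neuron covariate too. Gng13 held in both. The most abundant subunits per length, Gnb1 and Gnai2, at 101.1 and 99.78 RPKM, did not pass the test, with log2 fold changes of 0.05 (SE 0.05) and -0.03 (SE 0.07).

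**Figure D5:**
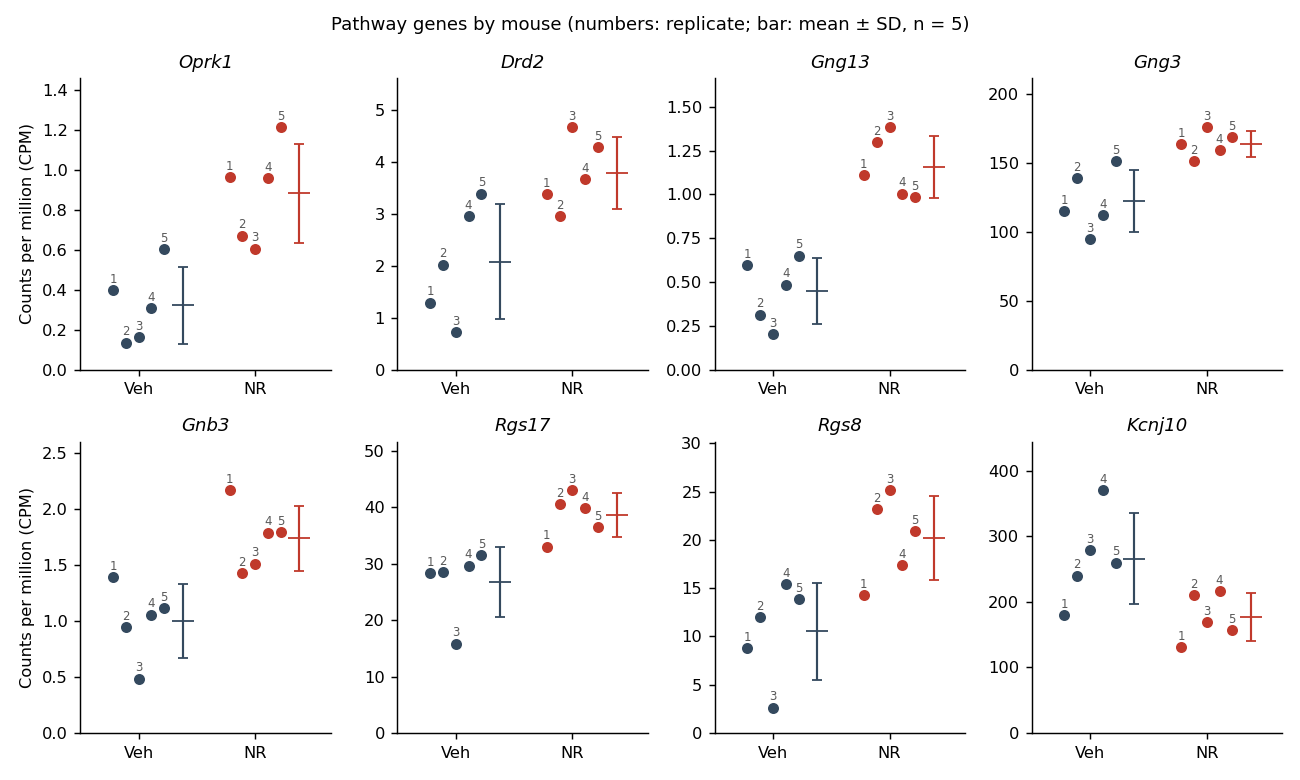
CPM of 8 genes of the lists by group, 1 point per mouse with its replicate number, and the mean ± SD of 5 mice beside each group, each panel with its own axis from 0. NR mice lie above all Veh mice for Oprk1, Gng13, Gng3, Gnb3 and Rgs17, overlap them for Drd2, Rgs8 and Kcnj10, and Veh mouse 3 is the lowest Veh mouse in 6 of the 8 panels. Of all genes tested, 0.769% had every NR mouse above every Veh mouse.

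The regulators that end or tune GIRK signalling come last in the chain. Of 22 tested, 2 were higher and 1 was lower, near the backgrounds of 4.83% and 4.88%, and the median log2 fold change was 0.01. Rgs17, an RGS protein that acts on Gαi, Gαo and Gαz, was at 33.01, 40.53, 43.01, 39.83 and 36.46 CPM in NR mice 1 to 5 and 28.35, 28.46, 15.82, 29.67 and 31.58 in Veh mice 1 to 5. The groups did not overlap, and Veh mouse 3 lay far below the rest (log2 fold change 0.53, SE 0.16, edgeR unadjusted p 0.007496, adjusted p 0.4231). Rgs8, known from Purkinje cells, rose from 10.53 ± 5.052 to 20.2 ± 4.379 CPM (SD, n = 5 each), a log2 fold change of 0.94 (SE 0.36, edgeR unadjusted p 0.02541, adjusted p 0.476) that lost the call without NR mouse 3.

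Rgs6, which ends GIRK signalling in the heart and brain, was lower in NR, at 54.75 ± 8.76 CPM against 75.01 ± 14.37 (SD, n = 5 each; log2 fold change -0.45, SE 0.15, edgeR unadjusted p 0.009617, adjusted p 0.4335). All 3 calls were lost with the spiral ganglion neuron covariate, and those of Rgs8 and Rgs6 without the 4 Prph libraries. The most abundant regulators per length, the receptor kinase Grk2, the lipid kinase Pip5k1c and the RGS anchor Rgs7bp, had log2 fold changes of 0.06, 0.0032 and 0.16 and did not pass the test, except Rgs7bp without Veh mouse 1 (0.24).

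The other inward rectifiers showed no general rise. Of 11 genes 10 were tested, none was higher and 1 was lower, beside backgrounds of 4.83% and 4.88%. The median log2 fold change was 0.13. The gene that fell was Kcnj10, the glial and strial channel Kir4.1 and the most abundant of the list at 40.87 RPKM. It was at 130.4, 210.1, 168.8, 216.1 and 156.5 CPM in NR mice 1 to 5 and 179.3, 239.9, 278.8, 370 and 259.8 in Veh mice 1 to 5. The groups overlapped only through Veh mouse 1, which was below NR mice 2 and 4. The log2 fold change was -0.59 (SE 0.19, edgeR unadjusted p 0.009458, adjusted p 0.4335), and the call was lost with the spiral ganglion neuron covariate, at -0.15. Kcnj16 had a log2 fold change of -0.34 (SE 0.31), which was 0.50 with that covariate. Kcnj11 had one of 0.20 (SE 0.11) and passed the unadjusted threshold only when NR mouse 1, Veh mouse 2 or Veh mouse 5 was left out, or in the fit with the Prph split or the replicate block.

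Kcnj4, a strong inward rectifier, followed the Prph split more sharply than any GIRK gene, with 97 to 133 reads in the 4 libraries and 3 to 12 in the other 6. Among the receptors Chrm2, the muscarinic receptor that gates atrial GIRK channels, did the same, with 52 to 82 reads against 1 to 11. Oprd1 (33 to 41 against 0 to 11), Htr1d (109 to 169 against 7 to 49) and Grm4 (324 to 406 against 66 to 103) also did. These genes were named after their values were seen.

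Kcnj10 is also a neighbour of Kcnj9. It begins 11.89 kb from the gene on chromosome 1, on the plus strand, and the next gene on that side is Pigm, of the GPI anchor pathway. On the other side lies Igsf8, whose end is 0.66 kb away. None of these 3 rose with Kcnj9. Pigm was lower in every NR mouse, at 18.22 to 19.62 CPM against 20.6 to 24.65 (log2 fold change -0.24, SE 0.06, edgeR unadjusted p 0.003031, adjusted p 0.4075), a call lost without the 4 Prph libraries at a log2 fold change of -0.23. Igsf8 had a log2 fold change of -0.07 (SE 0.07), and passed the unadjusted threshold only without the 4 Prph libraries (-0.22) or with that split as a term (-0.16).

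Around the other members, the 2 nearest protein-coding genes on each side were mostly uncalled. Rprm and Galnt13 before Kcnj3 and Nr4a2 and Gpd2 after it, 317.7 to 1639 kb away, did not pass the test, though Rprm did without NR mouse 4 (0.81) or Veh mouse 1 (0.95) and Gpd2 without NR mouse 2, Veh mouse 1 or Veh mouse 2 (-0.36, -0.35 and -0.35). Nor did Barx2 and Arhgap32 before Kcnj5 and Kcnj1 and Fli1 after it, of which Kcnj1 had at most 1 read per library and passed only without NR mouse 3. Beside Kcnj6, Dscr3, Dyrk1a and the inward rectifier Kcnj15 were uncalled, and Erg, an endothelial transcription factor, rose from 12.03 ± 0.8108 to 15.11 ± 2.12 CPM (SD, n = 5 each; log2 fold change 0.33, SE 0.11, edgeR unadjusted p 0.01017, adjusted p 0.4335), a call that was lost without the 4 Prph libraries.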

How the data were processed

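Cochlear poly(A) RNA of 5 NR and 5 Veh mtKeima mice was sequenced. The deposited values are raw counts per gene: per the labels and the methods of the study, the authors filtered reads with fastp, mapped them to mm10 with STAR 2.6.1d (2 mismatches allowed) and counted them with featureCounts 1.5.0 under default settings, which use no strand and leave out reads that fit several genes. Near-identical stretches and overlapping genes therefore lose counts. The authors tested with DESeq2 1.26.0. The deposited gene lengths equal the exon unions of GENCODE M21, which names 54409 of the 54532 gene IDs.

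Groups follow the labels. Genes passing filterByExpr (18329) were fitted by edgeR 4.0.16 (TMM, glmQLFit, glmQLFTest) in R 4.3.3, with no covariate and Benjamini-Hochberg adjustment over all of them, and genes it left out were taken from an unfiltered fit of the 33224 genes that had any read. SE is the log2 fold change over the square root of F. CPM is on the TMM-scaled library size, RPKM divides it by gene length, and log2 CPM for correlations used a prior count of 2. The fits were tested on simulated counts. The order and pair tests were exact permutations in numpy 2.4.6. Coding sequences were read from the genome through GENCODE M21 and aligned with biopython 1.88.

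The members and all lists were chosen with earlier results of these data known. Named genes are the 4 members, their 2 nearest protein-coding neighbours on each side, in each pathway list the 3 highest per length and the up to 5 with the smallest unadjusted p at or under 0.05, the 5 genes most like Kcnj9 and 3 most like each other member, markers beside a result, and others where said. Alternatives were DESeq2 size factors, DESeq2 1.42.0, no filter, a replicate block, a spiral ganglion neuron covariate, leaving out each library, coding length, log2(CPM + 0.5) for the pairs and, chosen after seeing the data, the split by over 1000 reads of Prph. Depth limits precision for genes with few reads. Some genes that these rules name are not reported here.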

Additional observations from a re-analysis of the deposited data

Results flagged for a closer look

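In 82 groups of 5 mice tested, 5 held a mouse far from the other 4 by Dixon's criterion, where chance alone gives about 1 in 20. Rgs17 was at 15.82 CPM in Veh mouse 3, the lowest of its group, against 28.35 to 31.58 in the others. Erg was at 13.47 CPM in Veh mouse 5, the highest of its group, against 11.49 to 11.82. The remaining 3 rest on single reads: Npy2r was at 0.04409 CPM in Veh mouse 4 and at 0 in the other Veh mice, Kcnj1 was at 0.04327 CPM in NR mouse 3 and at 0 in the other NR mice, and Kcnj1 was at 0 in Veh mouse 3 and at 0.04409 to 0.04964 CPM in the other Veh mice.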

How the results depend on the processing

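Kcnj9, described only since these counts chose it, had log2 fold changes of 0.96 to 1.16 over the alternatives run. DESeq2 called 102 genes at an adjusted p of 0.05 and edgeR 0. With the spiral ganglion neuron covariate, Kcnj3 (-0.03684) and Kcnj6 (-0.03844) turned negative, Kcnj5 passed the unadjusted threshold (-1.47), Kcnj16 turned positive (0.50), 560 genes were higher and 1255 lower, and 2 genes of the pathway lists were higher. Over the 33224 genes with any read 1414 were higher, where more genes were tested. Without the 4 Prph libraries, with 6 samples left (2 NR and 4 Veh), 359 genes were higher and 353 lower, and in the pathway lists 4 and 1. With the Prph split as a term 4 pathway genes were lower, beside 718 of all genes. Leaving out 1 library gave 669 to 1414 genes higher and 484 to 1059 lower, 6 to 19 pathway genes higher and 2 to 4 lower, Kcnj5 at -0.62 to 0.11 (0.1096 without Veh mouse 1), and Kcnj6 at -0.17 to 0.47 (-0.1731, -0.1372, -0.05325 and -0.03559 without NR mouse 2, NR mouse 5, Veh mouse 3 and Veh mouse 4). The cause of these shifts was not tested. The replicate numbers do not pair the samples: same-numbered mice deviated together with r of -0.22 to 0.17 and only the mice numbered 1 correlated best with their own number. With the replicate block, 879 genes were higher and 776 lower, 14 pathway genes were higher and 2 lower, and the log2 fold changes of Kcnj9, Kcnj3, Kcnj5 and Kcnj6 were 1.07, 0.34, -0.07 and 0.09. Few reads limit Kcnj6, Kcnj1 and Npy2r, with libraries at 1 read or 0.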
